A study of Mus musculus with 6 samples.

Results

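The EGF receptor family examined here comprised 10 mouse genes, the 7 ligand genes Areg, Btc, Hbegf, Nrg1, Ereg, Egf and Tgfa and the 3 receptor genes Egfr, Erbb2 and Erbb3. Its members were all non-control array probes whose annotated transcript belongs to one of these genes, which gave 16 of 56605 probes, for 10 of the 22907 genes that probes were matched to. The 6 arrays compared 3 knockdown samples, cells carrying a lentiviral shRNA against Ggct, with 3 control samples, cells carrying a lentiviral non-target shRNA. All 6 came from 1 murine glioblastoma stem cell line, raised by the neurosphere method from brain tumours that an SB transposon had induced in mice. Every sample was grown in serum-free Neurobasal medium with B27, N2 and 10 ng/ml EGF and bFGF, so the cells of both groups were given an EGF receptor ligand from outside. The knockdown titles name 1 hairpin, and the arrays are of 1 line. Replicates are numbered by the order of the days in the sample titles, each day being shared by 1 knockdown and 1 control sample. Nothing in the labels says whether the samples were separate transductions, and the p-values therefore cover only the spread among these samples, which may be technical.

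ErbB receptors are cell surface tyrosine kinases that pair up when a ligand binds and then feed the RAS-ERK and PI3K-AKT cascades. The ligands are made as membrane-bound precursors that proteases release from the cell surface. Amphiregulin (Areg), TGF-alpha (Tgfa) and EGF (Egf) bind EGFR, betacellulin (Btc), HB-EGF (Hbegf) and epiregulin (Ereg) bind EGFR and ERBB4, and neuregulin 1 (Nrg1) binds ERBB3 and ERBB4. ERBB2 has no known soluble ligand and serves as a partner of the other receptors. EGFR is known as a driver of glioblastoma, and EGF keeps neural stem cells dividing in neurosphere culture.

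The signal of a probe is given as log2 of the processed intensity after subtraction of that array's 75th percentile, so 0 is the 75th percentile and 1 unit is a doubling. Levels are compared within a probe only. Of the 10 genes, 8 had a probe that cleared the background on 3 or more arrays and were tested among 14151 genes. All 8 were above background on all 6 arrays, so none entered the test through 1 group alone. Tgfa and Erbb3 had 1 probe each, and neither was well above background on any array. The targeted gene Ggct had signals of 0.22, 0.91 and 0.70 in knockdown samples, against 3.32, 3.72 and 3.70 in control samples, and fell to 12.7% of control (log2 fold change -2.97 ± 0.20, SE; limma adjusted p = 0.00314).

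The arrays had 54.5% to 56.8% of their probes above background. Along the first principal component of the tested genes, knockdown replicate 1 lay farthest out, at -46.6. The other knockdown arrays were at -9.13 and -15.4, and all control arrays were above 0. Of 8 markers of neural and glioma stem cells, 7, among them Nes and Sox2, were above background on all arrays, and Olig2 was above it on none. The summed linear signal of these 8, in units of the 75th percentile, was 33.6 to 47.3 in knockdown arrays and 50.8 to 60.6 in control arrays. This sum rests mostly on the brightest, Nes, Sox2 and Cd44. Of 7 tested, 0 passed an adjusted p below 0.05 in limma. At an unadjusted p below 0.05, Nes and Sox2 were lower and Prom1 was higher. Prom1, Pou3f2 and Fabp7 had log2 fold changes above 0 (1.03, 0.20 and 0.06), and 4 had values below 0. Markers of other cells were partly above background. Those above it on all arrays were 3 of 6 for astrocytes, 3 of 5 for neurons, among them Snap25, and 5 of 6 for the oligodendrocyte lineage. They were 4 of 7 for microglia and leukocytes, among them Itgam, Csf1r and Cd68, 2 of 5 for endothelium and pericytes, namely Pecam1 and Cdh5, and 3 of 5 for fibroblasts. Above background on no array were Rbfox3 for neurons, Sox10 for the oligodendrocyte lineage, Ptprc, Aif1 and Cx3cr1 for leukocytes and microglia, Cldn5 for endothelium, Rgs5 for pericytes and Lum for fibroblasts. Some markers differed all the same (limma, adjusted p below 0.05): the astrocyte genes S100b and Slc1a3, the myelin genes Mbp and Cnp, the microglial gene Tmem119 and the collagen gene Col1a2 were higher in knockdown arrays, and Pdgfra was lower. Slc1a3 and Cnp did not pass with the day as a replicate block (limma adjusted p = 0.0652 and 0.0845). The summed signal of the 5 fibroblast markers was 1.11 to 1.28 in knockdown arrays and 0.629 to 1.01 in control arrays. That of the 6 oligodendrocyte lineage markers was 3.63 to 3.79 in knockdown and 3.81 to 4.16 in control arrays. This oligodendrocyte lineage sum rests mostly on the brightest, Pdgfra and Cnp, which moved in opposite directions. Mean log2 signals of Pdgfra were 0.13 in knockdown and 1.03 in control arrays, and those of Cnp were 0.99 and 0.51. The sums overlapped between the groups for the 6 astrocyte markers (up to 5.28 in knockdown, 3.49 to 5.24 in control) and the 7 microglial and leukocyte markers (13.2 to 15.6 in knockdown, 12.2 to 18.5 in control). They also overlapped for the 5 neuronal markers, at 7.41 to 9.35 in knockdown and 7.79 to 12.1 in control arrays, and for the 5 endothelial and pericyte markers, at 0.186 to 0.230 in knockdown and 0.170 to 0.248 in control arrays. The part of these differences in the results for the ErbB family was not tested.

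Of the 6 tested ligand genes, 4 fell in the knockdown. Areg, Btc, Hbegf and Nrg1 were lower past the threshold, a limma adjusted p below 0.05 over all 14151 genes, at 33.5%, 36.2%, 41.7% and 56.9% of control. Ereg, Egf, Egfr and Erbb2 did not pass, and 0 members were higher past the threshold (0 also at an unadjusted limma p below 0.05). Over all tested genes 2.84% were lower and 4.57% higher by the same rule. At an unadjusted p below 0.05, 7 of the 8 tested members were lower, against 10.7% of all tested genes (14.1% were higher). The same 7 had groups that did not overlap, all with the knockdown below the control, against 14.6% of all genes in that direction and 17.8% in the other. They were also lower in all 3 pairs, as were 22.4% of all genes, and 47.7% of all genes had a value below 0. The members were chosen with earlier results of these data known, so these shares describe the family and are not a test of it. The calls depended on single arrays. Without control replicate 1, control replicate 2 or knockdown replicate 3, 0 of the 8 members passed in limma, with 7, 5 and 6 of them still lower at an unadjusted p below 0.05. Without knockdown replicate 2, 3 members were lower past the threshold, and without knockdown replicate 1 or control replicate 3 there were 4, which without control replicate 3 included Ereg and not Nrg1.

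**Figure D1:**
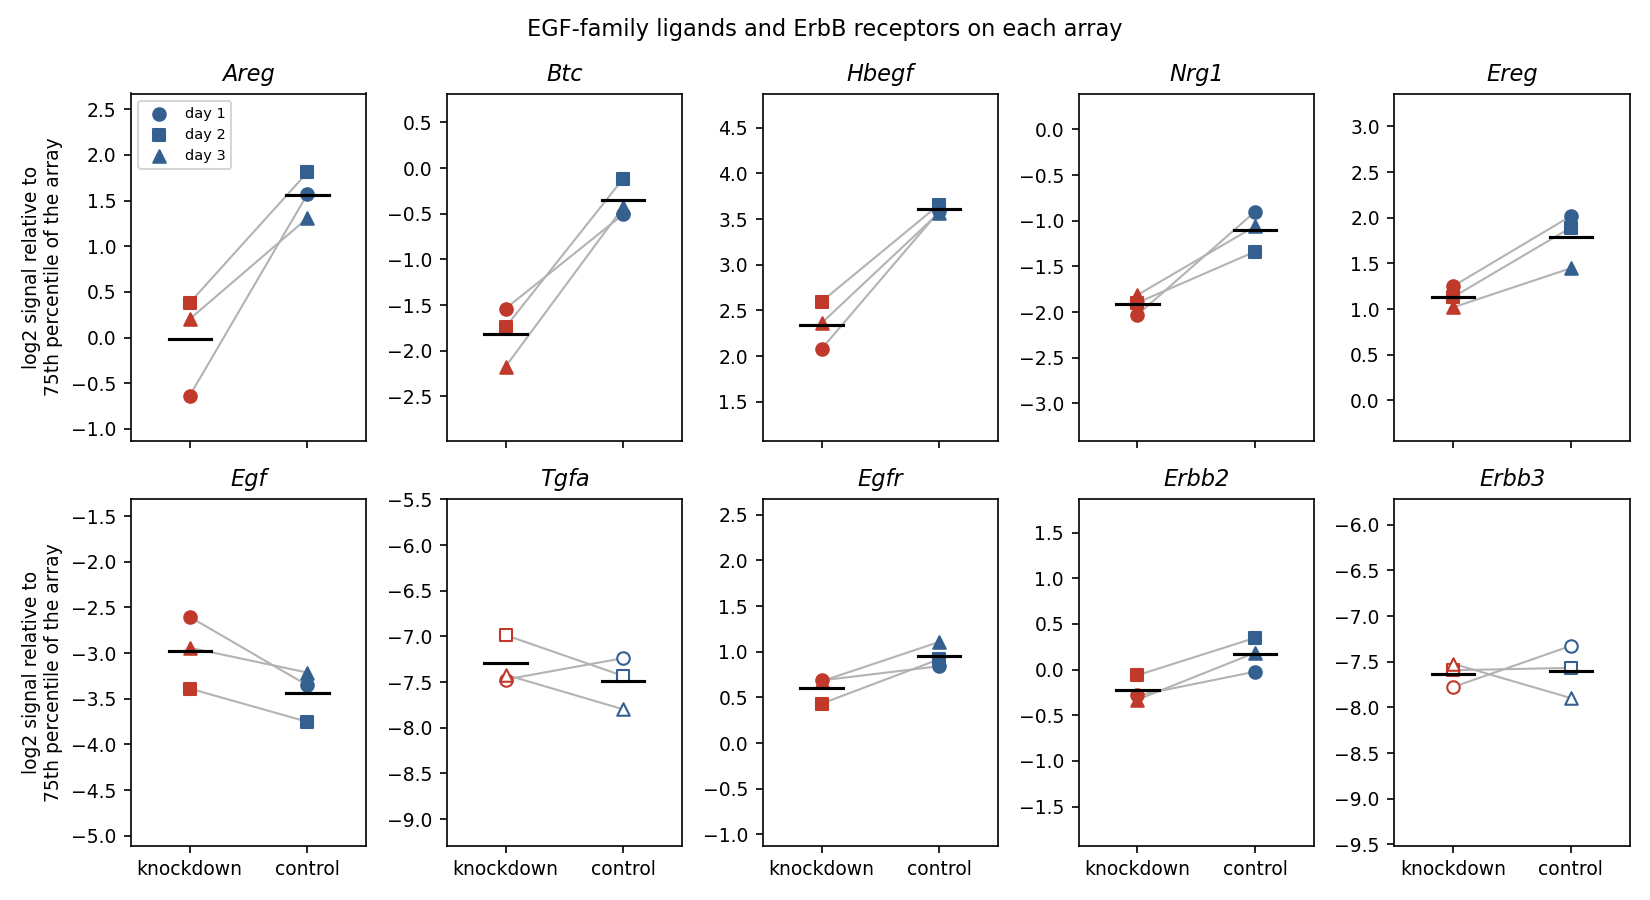
Each panel plots 1 gene, with the log2 signal relative to the 75th percentile of the array on the vertical axis (panels span the same number of units but start at different levels), the 3 knockdown arrays on the left and the 3 control arrays on the right. Grey lines join arrays of 1 day, black bars are group means, and open symbols mark probes that were not well above background. All 3 knockdown points lie below all 3 control points for Areg, Btc, Hbegf, Nrg1, Ereg, Egfr and Erbb2.

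Areg encodes amphiregulin, an autocrine EGFR ligand of many epithelial and tumour cells. Its signal was -0.64, 0.38 and 0.20 in knockdown replicates 1 to 3, against 1.57, 1.81 and 1.31 in control replicates 1 to 3. The groups did not overlap, and knockdown replicate 1 was the lowest array. The means were -0.02 ± 0.54 in knockdown and 1.56 ± 0.25 in control (SD, n = 3 each). The fold change on the log2 scale was -1.58 ± 0.27 (SE) at a limma adjusted p of 0.020, which placed Areg 18th from the lowest of the 14151 genes. The 3 pairs of arrays differed by -2.21, -1.43 and -1.10. Without knockdown replicate 1, which lay apart, the log2 fold change of Areg was -1.27 (limma adjusted p = 0.0124).

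Btc encodes betacellulin, a ligand that binds EGFR and ERBB4. Its brighter probe gave -1.54, -1.74 and -2.17 in knockdown replicates, against -0.51, -0.11 and -0.43 in control replicates. Every knockdown array lay about 1 unit or more below every control array, and knockdown replicate 3 was the lowest. Btc differed by -1.47 ± 0.19 on the log2 scale (SE; limma adjusted p = 0.0129), with pair differences of -1.03, -1.63 and -1.74. A second Btc probe, annotated to the same transcript, was not well above background on any array, with signals of -7.67 to -7.40 in knockdown and -7.79 to -7.21 in control. The fall of Btc thus rests on 1 of its 2 probes.

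Hbegf encodes heparin-binding EGF-like growth factor, which binds EGFR and ERBB4 and also serves as the diphtheria toxin receptor in human cells. It had 2.08, 2.60 and 2.36 in knockdown replicates, against 3.59, 3.66 and 3.57 in control replicates. The control arrays were nearly equal, with an SD of 0.05, and the knockdown arrays had an SD of 0.26. The knockdown mean of Hbegf differed from the control mean by -1.26 ± 0.15 on the log2 scale (SE; limma adjusted p = 0.0112). Hbegf was lower by 1.51, 1.06 and 1.21 units in the 3 pairs.

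Nrg1 encodes neuregulin 1, whose many isoforms come from several promoters and which signals through ERBB3 and ERBB4 in glia and neurons. Its brightest probe gave -2.03, -1.90 and -1.81 in knockdown replicates, against -0.90, -1.34 and -1.06 in control replicates. The groups did not overlap, although the gap was smaller than for the other 3 ligands that fell. The fitted difference was -0.81 ± 0.15 on the log2 scale (SE; limma adjusted p = 0.0232), with pair differences of -1.13, -0.56 and -0.75. With the day as a replicate block Nrg1 did not pass (limma adjusted p = 0.0585), nor without a filter on dim probes (adjusted p = 0.0605). Of the single arrays, only leaving out knockdown replicate 1 kept the call of Nrg1, and it was lost in 10 of the 17 alternatives.

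Nrg1 had a further pair of probes. The second, annotated to the same transcript, gave -3.48, -3.66 and -3.56 in knockdown replicates, against -2.68, -2.74 and -2.44 in control replicates. These groups did not overlap either. The third, annotated to a predicted transcript, was above background on 1 knockdown and 2 control arrays and ranged from -6.29 to -4.92 in knockdown and from -5.63 to -4.30 in control, so its groups overlapped.

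The remaining ligands were not past the threshold. Ereg, which encodes epiregulin, had 1.25, 1.13 and 1.02 in knockdown replicates, against 2.02, 1.89 and 1.45 in control replicates. Its groups did not overlap, and its log2 fold change was -0.65 ± 0.17 (SE; 95% interval -1.05 to -0.26; limma adjusted p = 0.0627). Ereg did pass without control replicate 3 (adjusted p = 0.0419) and with normexp background correction (adjusted p = 0.0344), both times as lower. Egf, the gene of the factor that the medium also supplied, had -2.60, -3.39 and -2.94 in knockdown replicates, against -3.35, -3.75 and -3.21 in control replicates. It was the only tested member with a value above 0, at a log2 fold change of 0.46 ± 0.23 (SE; 95% interval -0.07 to 0.99; limma adjusted p = 0.26). The Egf groups overlapped, and the pairs differed by 0.75, 0.36 and 0.27. The value of Egf depended on the setting, at 0.15 with normexp, 0.27 without knockdown replicate 1 and 0.31 without control replicate 2, and ran from 0.15 to 0.67 over the 17 alternatives.

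Neither tested receptor gene passed the threshold. Egfr, the receptor of EGF, had 0.69, 0.43 and 0.68 in knockdown replicates by its brightest probe, against 0.84, 0.92 and 1.11 in control replicates. The groups did not overlap, but the log2 fold change of Egfr was -0.36 ± 0.13 (SE; 95% interval -0.67 to -0.05; limma adjusted p = 0.148). That interval spans 62.9% to 96.8% of control. A further pair of Egfr probes gave values of -0.25 ± 0.12 and -0.31 ± 0.12 (SE), each with groups that did not overlap, so the 3 probes differed from each other by less than their errors.

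Erbb2 encodes the co-receptor without a known soluble ligand. Its brighter probe had -0.28, -0.06 and -0.33 in knockdown replicates, against -0.02, 0.35 and 0.18 in control replicates. All 3 knockdown values lay below the lowest control value, with knockdown replicate 2 and control replicate 1 the closest. The log2 fold change of Erbb2 was -0.39 ± 0.14 (SE; 95% interval -0.73 to -0.06; limma adjusted p = 0.139), and its second probe gave -0.34 ± 0.15 (SE). Neither receptor passed under any of the 17 alternatives run, with limma adjusted p-values from 0.115 to 0.607 for Egfr and from 0.128 to 0.46 for Erbb2. Whether the ligand and receptor changes differ from each other was not tested.

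The probes for the receptors that bind neuregulin were dim, with 1 probe each for Erbb3 and Erbb4. A dim single probe does not show that a transcript is absent, as the 2 Btc probes differed in this way. Erbb3, the partner with a weak kinase of its own, had signals of -7.78 to -7.52 in knockdown and -7.90 to -7.33 in control arrays, and Tgfa had -7.47 to -6.99 in knockdown and -7.80 to -7.24 in control arrays. No fold is given for either, since both groups were below background. Of 5 further ErbB family genes, Erbb4, Nrg3 and Nrg4 were above background on no array, and the epithelial ligand Epgn on 1 array. Nrg2, a neuregulin expressed in brain, was tested and was lower, at -0.58 ± 0.12 on the log2 scale (SE; limma adjusted p = 0.0352). It did not pass with the day as a replicate block (limma adjusted p = 0.0803), and lost its call in 11 of the 17 alternatives. The call rests on 1 of 2 Nrg2 probes, as the other was above background on 1 array only. In the fit over all kept probes the tested Nrg2 probe did not pass (limma adjusted p = 0.0761).

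**Figure D2:**
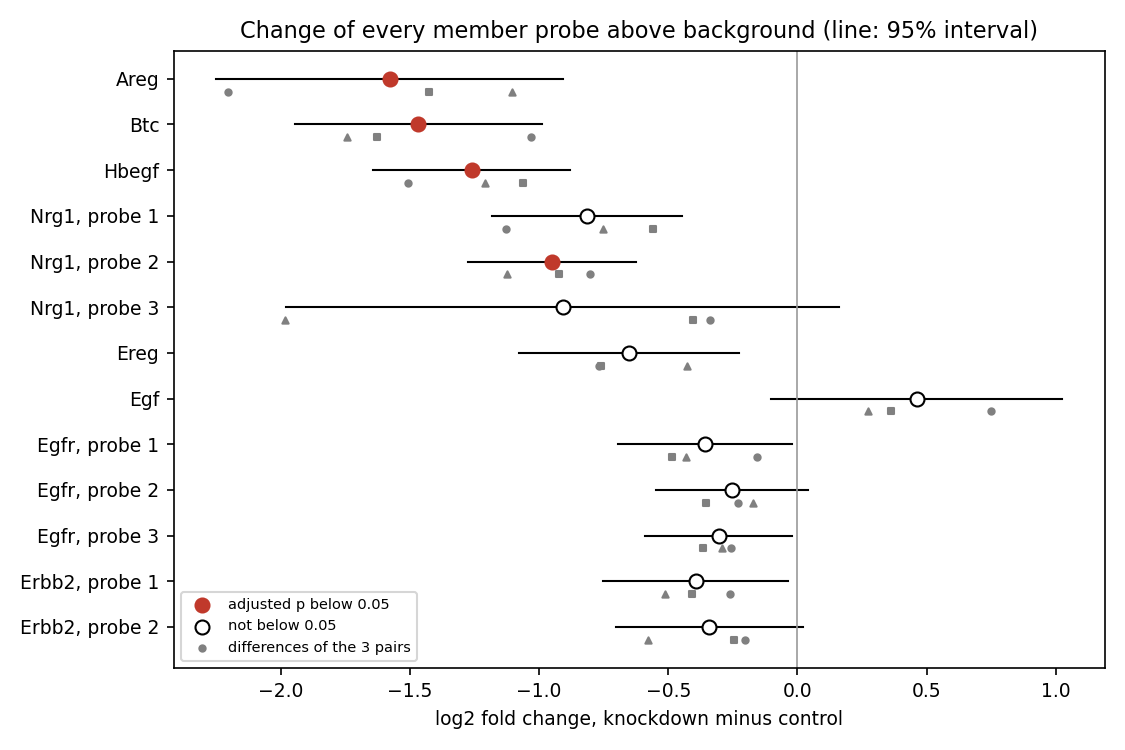
The 13 probes of the family that cleared the background on 3 or more arrays are listed down the page, ligands above receptors, with the log2 fold change (knockdown minus control) on the horizontal axis, its 95% interval as a line and the 3 pair differences as small grey symbols. Filled points passed in the fit over all 31804 kept probes; 12 of the 13 points lie left of 0, and Egf lies right of it.

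Fitted as probes, 4 of the 13 were lower past the threshold and 0 higher (limma, adjusted over 31804 probes). These 4 were the single probes of Areg (adjusted p = 0.0495) and Hbegf (0.035), the brighter Btc probe (0.0378) and the second Nrg1 probe (0.0389), while the brightest Nrg1 probe was at 0.0561. Over all kept probes, 0.591% were lower and 1.16% higher by this rule. At an unadjusted p below 0.05, 9 of the 13 were lower and 0 higher, against 8.67% and 10.4% of all kept probes. The groups did not overlap for 11 of the 13, all lower, against 12.4% of all kept probes. Without knockdown replicate 1, 2 family probes passed, and without any other single array 0 passed (limma; 6 to 9 at an unadjusted p below 0.05). With the day as a replicate block, 0 of the 31804 probes passed (limma adjusted p), although 2561 (8.05%) were lower and 3011 (9.47%) higher at an unadjusted p below 0.05. In that fit, 7 of the 13 family probes were lower and 1 higher at an unadjusted p below 0.05.

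The sizes of the changes varied less than the calls. Over all 17 alternatives the log2 fold changes ran from -1.82 to -1.27 for Areg, from -1.69 to -1.19 for Btc, from -1.39 to -1.13 for Hbegf and from -0.94 to -0.66 for Nrg1. No tested member changed direction. For the 7 members whose groups did not overlap, leaving out arrays or pairs could not have changed it.

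Areg, Btc, Ereg and Epgn lie side by side on chromosome 5 in the RefSeq gene table, in the order Epgn, Ereg, Areg, Btc, with no other protein-coding gene between them. The 5 protein-coding genes listed on each side of this cluster were looked up after the ligand values had been seen. Of these 10 genes 5 were tested, and 0 passed in limma (0 also at an unadjusted p below 0.05). Among all tested genes 2.84% were lower and 4.57% higher past the threshold, and 10.7% and 14.1% at the unadjusted p. At such shares a count of 0 among 5 genes says little about the locus. Mthfd2l, a folate enzyme gene next to Epgn, differed by 0.15 ± 0.12 on the log2 scale (SE; limma adjusted p = 0.501). Parm1, next to Btc on the other side, had 0.77 ± 0.35 (SE; limma adjusted p = 0.23). The tested neighbours had values from -0.07 to 0.77, while the 3 tested ligands of the cluster had -1.58, -1.47 and -0.65. Hbegf is on chromosome 18 and Nrg1 on chromosome 8. Whether the position of the genes has a part in these changes was not tested.

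**Figure D3:**
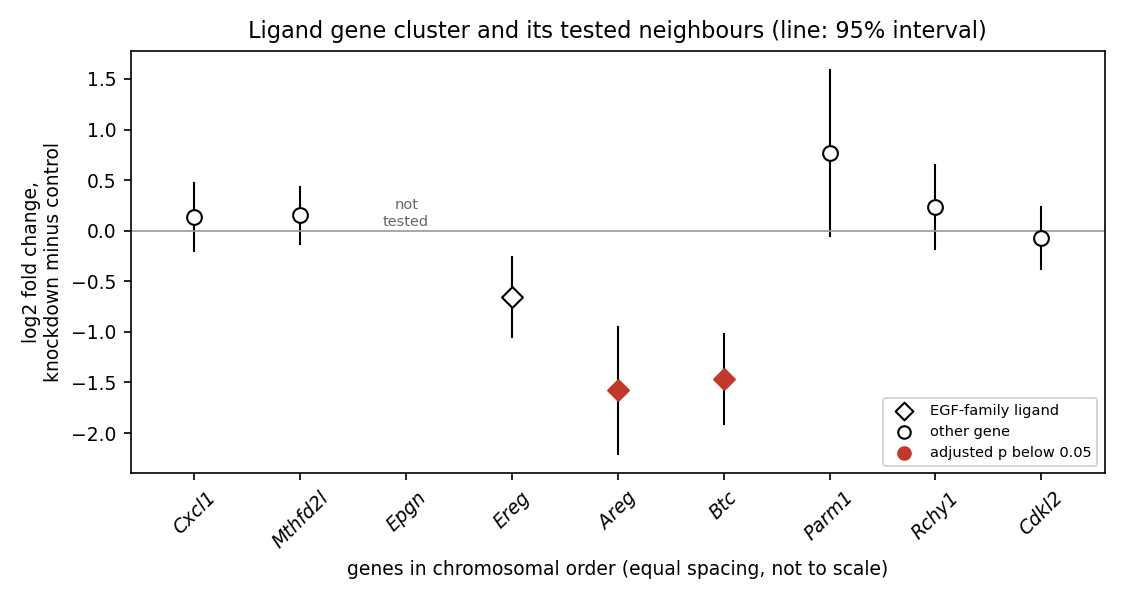
Genes stand in their chromosomal order, equally spaced and not to scale, with the log2 fold change (knockdown minus control) and its 95% interval on the vertical axis; diamonds are EGF-family ligands and filled symbols passed the threshold. Ereg, Areg and Btc lie at -0.65, -1.58 and -1.47, and the 5 other tested genes between -0.07 and 0.77.

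Promoter sequences from RefSeq (build GRCm38.p6, 250 bases before to 50 after the start of the gene) were at hand for 6 of the 10 members. Those of Areg and Btc are shown because these neighbouring genes fell together, and that of Egfr as a receptor gene that did not pass. Egfr is not an unchanged gene, since its value was -0.36 and its groups did not overlap. Those of Egf, Tgfa and Erbb2 are not shown. Whether promoter letters have a part in which genes fell was not tested. Capitals mark motif matches on either strand. The motifs searched were the AP-1 site TGANTCA, the cyclic AMP response element (CRE) TGACGTCA, the core site TGGGAA of CSL, the DNA-binding partner of Notch, and the TEAD site GGAATG. None of these overlaps another in the sequences shown.
Areg promoter, chr5:91139349-91139648, plus strand: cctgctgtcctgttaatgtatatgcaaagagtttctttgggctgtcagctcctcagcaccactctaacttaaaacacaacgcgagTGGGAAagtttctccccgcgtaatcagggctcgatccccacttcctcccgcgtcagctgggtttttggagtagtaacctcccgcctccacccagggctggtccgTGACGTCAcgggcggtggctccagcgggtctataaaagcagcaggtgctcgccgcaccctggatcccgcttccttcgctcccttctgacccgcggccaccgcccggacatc
Btc promoter, chr5:91402945-91403244, minus strand: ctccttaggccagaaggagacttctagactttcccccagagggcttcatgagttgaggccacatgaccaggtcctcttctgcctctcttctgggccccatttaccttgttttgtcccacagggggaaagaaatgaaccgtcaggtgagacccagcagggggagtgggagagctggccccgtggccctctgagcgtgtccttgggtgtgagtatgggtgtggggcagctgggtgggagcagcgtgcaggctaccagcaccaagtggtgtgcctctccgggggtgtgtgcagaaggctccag
Egfr promoter, chr11:16751953-16752252, plus strand: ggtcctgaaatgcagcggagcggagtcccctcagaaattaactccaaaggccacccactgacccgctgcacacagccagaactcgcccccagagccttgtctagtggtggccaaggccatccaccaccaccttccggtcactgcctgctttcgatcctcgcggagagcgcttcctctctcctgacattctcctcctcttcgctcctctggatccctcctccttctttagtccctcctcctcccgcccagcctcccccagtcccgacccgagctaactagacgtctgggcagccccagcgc

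The Areg promoter held 1 CRE, whose first base lies 61 bases before the start, and 1 CSL core at 165 bases before it. These letters are in 1.79% and 25.6% of the 32851 mouse promoters of the same length. The AP-1 letters, found in 7.81% of all promoters, were in no member promoter at hand, and those of TEAD, found in 14.7%, were in that of Erbb2 only. The Btc and Egfr windows held none of the 4 motifs. A match is a run of letters in this window and not a measured binding site.

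Other genes of the pathway were described by lists. Most of their members did not pass, and most of those that passed were lower. The shares to set beside each list are 2.84% lower and 4.57% higher past the threshold over all tested genes. For ligand release, the 10 listed genes were all tested, among them the sheddase genes Adam10 and Adam17 and the iRhom genes Rhbdf1 and Rhbdf2. In limma 0 passed in either direction. At an unadjusted p below 0.05, 5 of the 10 were lower (Adam10, Adam12, Adam17, Bace1 and Rhbdf1) and 0 higher, against 10.7% and 14.1% of all tested genes. Such lower values were not particular to this list. Over the 92 tested genes of all pathway lists, 25 were lower and 3 higher at an unadjusted limma p below 0.05. The list's median log2 fold change was -0.32. The median over all tested genes was 0.02. Of 11 tested receptor brakes and degradation genes, 1 was lower and 0 were higher, with a median of -0.33. The 1 was Sh3kbp1, an adaptor that binds CBL in receptor endocytosis (-0.87 ± 0.16, SE; limma adjusted p = 0.0232). Sh3kbp1 was tested by the brightest of its 4 probes and lost its call in 8 of the 17 alternatives.

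Of 30 adaptor and cascade genes, all tested, 1 was lower and 0 higher, with a median of 0.04. A count of 1 in 30 is near the share of 2.84% lower over all genes. The 1 was Map2k2, which encodes the ERK kinase MEK2, at -0.55 ± 0.13 (SE; limma adjusted p = 0.0478), and it did not pass with the day as a replicate block (limma adjusted p = 0.103) or with any single array left out (0.0681 to 0.143). Of 25 transcripts induced by EGFR and ERK signalling, 3 were lower and 1 higher, with a median of -0.08. The immediate early genes Egr3 and Egr1 were lower, with log2 fold changes of -1.41 ± 0.20 and -0.76 ± 0.18 (SE), and so was Spred2, an inhibitor of RAS-ERK signalling, at -0.65 ± 0.12 (SE). The ETS factor gene Etv1 was higher by 0.63 ± 0.12 (SE). Spred2 and Etv1 did not pass with the day as a replicate block (limma adjusted p = 0.0544 and 0.0657). With the mean of its probes Spred2 was at -0.35 and did not pass (limma adjusted p = 0.172). Egr1 lay just past the threshold (limma adjusted p = 0.0474) and lost its call in 12 of the 17 alternatives, among them quantile normalization (0.0599), the other percentile scaling (0.0521), no filter (0.108) and each single array left out (0.0537 to 0.160). Egr3 lost its call in 5 of the 17. Of 15 other tested growth factor receptor kinase genes, Flt1, a VEGF receptor (49.9% of control), and Pdgfra, the PDGF-alpha receptor (-0.90 ± 0.12, SE), were lower and 0 higher (limma, adjusted p below 0.05). Flt1 did not pass with the day as a replicate block (limma adjusted p = 0.0527). The list's median of -0.39 lay beside the values of Egfr and Erbb2. Over the 92 tested genes of these lists together, 8 were lower and 1 higher, against the shares of 2.84% and 4.57% of all genes, and 4 were lower and 0 higher with the day as a replicate block (5 higher at an unadjusted limma p below 0.05), when 1.16% of all genes were lower and 2.78% higher. Without control replicate 1, control replicate 2 or knockdown replicate 3, 0 of the 92 were lower past the threshold (20, 16 and 23 at an unadjusted limma p below 0.05), and without control replicate 3 there were 5. Etv1 did not pass without knockdown replicate 3 or without any 1 of the control replicates.

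**Figure D4:**
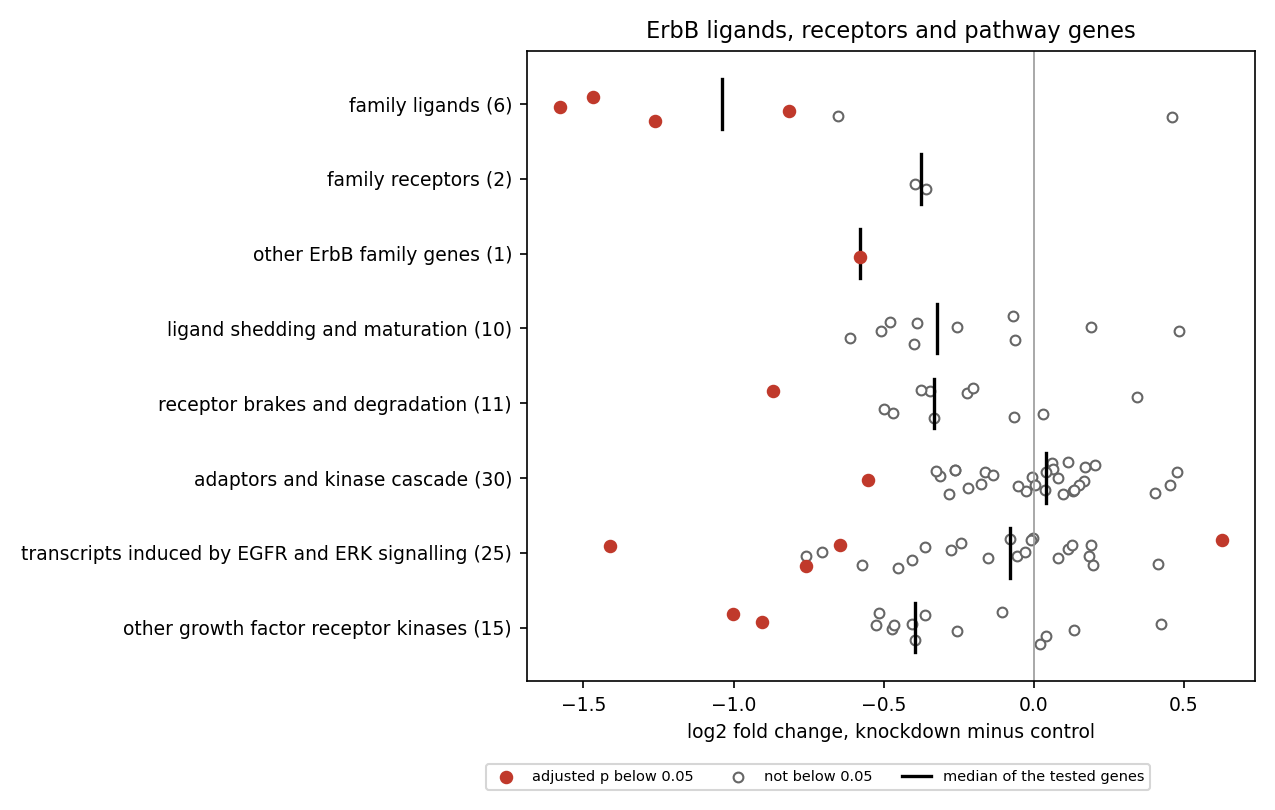
Each point is a tested gene, placed by its log2 fold change (knockdown minus control) on the horizontal axis, with 1 row per list, the number of tested genes in parentheses and a black bar at the list's median; filled points passed the threshold. The ligand row has a median of -1.04 and the receptor row -0.38, and the other rows lie between -0.58 and 0.04.

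The genes whose signal ran most alike to the ligands that fell were sought by Pearson's r over the 6 arrays. For Areg they were Map3k7, which encodes the kinase TAK1 (r = 0.998), Klf4, a zinc finger transcription factor (0.997), and Cdk12 (0.995). For Btc they were Ccdc6 (0.998), Larp1 (0.996) and Chmp7 (0.996), and for Hbegf Myo1c (0.997), Soga1 (0.997) and Dpysl3 (0.996). For Nrg1 they were Zbtb20 (0.993), Ccdc88a (0.991) and Cldn12 (0.989). All 12 had log2 fold changes below 0, from -1.42 for Klf4 to -0.29 for Chmp7, and Cdk12, Larp1, Chmp7 and Cldn12 did not pass the threshold. The points share the split into 2 groups, which by itself gives a high r, and no gene was among the closest 3 of more than 1 ligand.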

How the data were processed

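Cy3-labelled cRNA of 6 samples was hybridised to 1-colour Agilent arrays. The deposited scanner files hold spot intensity on a linear scale, background-subtracted by Agilent Feature Extraction 11.0.1.1, per the file headers. The deposited series table holds log2 values: each column equalled log2 of the processed signal minus 1 constant (9.05 to 9.75, tolerance 0.01), with its 75th percentile near 0, no centring of genes and column medians of -4.46 to -4.21.

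Outlier spots were dropped, 12 probes with no usable spot on some array were left out, replicate spots were averaged on the log2 scale, and the array's 75th percentile was subtracted. Over all non-control spots, before outliers were dropped and spots averaged, the 75th percentile ran from 812 to 1373 intensity units. It is not the value subtracted, which was taken over the averaged probes. On all arrays 0 spots were saturated, and the number of arrays limits the precision. All arrays had 1 scan day. Accessions matched without version to RefSeq transcripts (GRCm38.p6) named 32994 probes (58.3%); the design grid is on mm9, so no gene coordinates are taken from that table. Probes well above background on at least 3 arrays were kept (31804), with the brightest probe per gene (14151 genes).

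The 2 groups were set against each other in limma 3.58.1 under R 4.3.3 (lmFit, eBayes, two-sided, Benjamini-Hochberg over all genes or probes, threshold 0.05), without a block. Tables and plots used Python 3.11.15, pandas 2.3.3 and matplotlib 3.10.9. The code was tested on simulated data. The titles mark a shared day, which pairs the samples; deviations of paired arrays from their group means correlated at -0.02, 0.55 and -0.20. Named were all members, Ggct, list genes past the threshold (up to 4 per direction) and the 3 most alike genes per member that passed, leaving out clone, locus and predicted names. The members, lists and tests were chosen with earlier results of these data known. Alternatives were normexp, quantile and other percentile scaling, no or a stricter filter, mean of probes, the deposited table, the day as a block, and arrays or pairs left out.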

Additional observations from a re-analysis of the deposited data

How the results depend on the processing

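No tested member, pathway list gene past the threshold or alike gene named in the report changed direction under the alternatives run. Where the groups of a gene do not overlap, leaving out arrays or pairs cannot change its direction. For cell type markers other than Pdgfra and the genes beside the chromosome 5 cluster, only the main fit and the block are covered here. Under the scalings, the filters, the mean of probes, the deposited table and the replicate block, 3 to 5 members were lower and 0 higher (limma; at most 1 at an unadjusted p below 0.05, Egf with the replicate block). With the day as a replicate block, 3 members, 4 pathway genes and 164 of all genes were lower, and 0 pathway genes and 394 of all genes were higher. The block left 0 family probes past the threshold and changed no other member's call than that of Nrg1. Without a filter, 3 pathway genes and 102 of all genes were lower, 0 pathway genes and 255 of all genes were higher, and 0 family probes were lower. With quantile normalization 2 family probes were lower.

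With single arrays left out, the lower calls ran from 0 to 4 members, 0 to 2 family probes, 0 to 6 pathway genes and 6 to 343 of all genes, and the higher calls from 0 to 1 pathway genes and 8 to 497 of all genes. Without pair 1, 0 family probes, 2 pathway genes and 108 of all genes were lower and 0 pathway genes and 235 of all genes higher. Without pair 2, 0 members, 0 family probes, 0 pathway genes and 15 of all genes were lower and 0 pathway genes and 66 of all genes higher. Without pair 3, 0 were lower and 0 higher in every one of these counts (limma), with 1040 genes lower and 1756 higher at an unadjusted p below 0.05, and Ggct did not pass there either (log2 fold change -2.96, limma adjusted p = 0.125). These fits have fewer samples by construction. The planned normexp on the mean spot signal was not run, since the scanner files used here hold the median; normexp on the median was added after the data were seen. A count of 0 above comes from limma; at an unadjusted p below 0.05 it was 4 to 7 members lower, 6 to 9 family probes lower, 15 to 23 pathway genes lower and 2 to 5 pathway genes higher. Tgfa, Erbb3, Erbb4, Nrg3, Nrg4 and Epgn were too dim for a statement on their change.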
